A study of Mus musculus with 16 samples.

Results

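The cells described here are those that the authors placed in the cluster Lymph_EC_19, the lymphatic endothelial cells of mouse brown adipose tissue. They were chosen by that name in the authors' deposited annotation, and they number 385 of 24352 named cells (1.58%) and of 109723 cells in all. By size the cluster ranked 18 of 28 named clusters. Lyve1, Prox1 and Mmrn1, which mark lymphatic endothelium, could not be looked up, because gene values were not analysed here, so the name stands as the authors gave it.

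Lymphatic endothelial cells line the vessels that drain fluid, lipid-carrying particles and immune cells from a tissue back to the blood. Their identity is set by PROX1, a transcription factor that keeps them distinct from blood endothelium, the lining of arteries, capillaries and veins. LYVE1, a receptor that binds hyaluronan, is abundant on the initial lymphatic capillaries, and MMRN1 is a secreted protein made by lymphatic endothelium. Brown adipose tissue burns fat to make heat and is densely supplied with blood vessels, and cold exposure is known to remodel them.

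The study used single-cell RNA sequencing of the stromal vascular fraction, the cells that remain when interscapular brown fat is digested and the floating adipocytes are removed, and asked how this mixture changes in the cold. All mice were of the strain C57BL6J, with no other allele given, and the fraction was depleted of red blood cells and dead cells before capture. Thermoneutral mice were kept at 30 °C for 1 week, room temperature mice at 22 °C for 1 week, and cold-exposed mice at 5 °C for 2 days or for 7 days, with 4 libraries per housing. Neither age, sex nor the number of animals behind a library is given in the sources used here, so p-values measure the spread between libraries, which may be technical.

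The cells per library ranged from 1473 to 10005, and their median UMI count (counted RNA molecules) from 1978.5 to 9819. Replicate 1 of 2-day cold held no named cell and stood apart: its cells had 29.1% mitochondrial UMIs in the median, while the 3 remaining 2-day libraries had 2.47% to 3.7%. Values over named cells therefore rest on 15 libraries, 3 of them from 2-day cold. Within each housing replicates 3 and 4 had lower median UMI counts over all cells than replicates 1 and 2, so differences are also given within each of those pairs. The 6 clusters whose names begin with EC_ held 2983 cells and are the reference endothelium, and ECAP_4, a name the sources do not spell out, held 1859.

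The lymphatic cells formed a group of their own at every level of detail at which the authors clustered. Among the named cells, 1 cluster held all 385 of them and nothing else at each of 8 resolutions, from 0.1 with 12 clusters to 1.8 with 38. Of the EC_ clusters, EC_10, EC_11, EC_15 and EC_23 were not separated in this way at the coarsest level. There they shared a single cluster of 2708 cells, to which they gave 867, 833, 686 and 322 cells. EC_28 and EC_32 did stand apart there, with 172 of 195 and 61 of 62 cells in clusters of 172 and 61 cells. At resolution 0.4 all 195 EC_28 cells formed a cluster of their own. In the table of all cells, 1 cluster of 422 cells held the same 385 cells at each of 8 resolutions, from 19 to 61 clusters, and held 0 EC_ cells. All of these partitions were made from the same expression data as the name, so they describe the cluster and are no test of it.

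Beside the 385 lymphatic cells, that cluster, number 43 at resolution 1.8, held 36 unnamed cells and 1 cell named VSM-AP_6. Of the unnamed cells, 16 came from replicate 1 of 2-day cold and 20 from 6 other libraries. Their median of 4237.5 UMIs lay close to the 4822 of the lymphatic cells, and none had fewer than 2539. The 16 cells from replicate 1 of 2-day cold were 0.160% of its 10001 cells (95% Wilson interval 0.0985% to 0.260%). Their medians were 4779 UMIs and 2.73% mitochondrial UMIs, in a library whose medians over all cells were 9819 UMIs and 29.1%. No barcode occurred in more than 1 library among the lymphatic cells. Across all cells, 13 of the lymphatic barcodes were also present in another library, and any pair of libraries shared at most 39 barcodes.

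The lymphatic cells were spread unevenly over the libraries. The 4 thermoneutral libraries held 28, 3, 14 and 20 of them in replicates 1 to 4, and the 4 room temperature libraries 8, 19, 53 and 4. The libraries of 2-day cold held 28, 20 and 84 in replicates 2 to 4, and those of 7-day cold 31, 33, 32 and 8. Replicate 4 of 2-day cold and replicate 3 at room temperature together gave 35.6% of all lymphatic cells. By housing, 65 came from thermoneutrality, 84 from room temperature, 132 from 2-day cold and 104 from 7-day cold. These totals are not adjusted for the number of cells captured.

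As a share of named cells, lymphatic cells were more common after 7 days of cold than at thermoneutrality. They were 0.749%, 0.562%, 1.01% and 0.782% of named cells in thermoneutral replicates 1 to 4, a mean of 0.776% ± 0.184 (SD, n = 4). After 7 days at 5 °C they were 3.95%, 3.09%, 5.24% and 1.70%, a mean of 3.50% ± 1.49 (SD, n = 4). Every 7-day library lay above every thermoneutral one. The margin was narrowest between replicate 4 of 7-day cold, where 8 cells gave a 95% Wilson interval of 0.865% to 3.32%, and replicate 3 at thermoneutrality, with 0.603% to 1.69%. The named cells behind these shares were 37.4%, 31.1%, 13.9% and 42.7% of all cells in thermoneutral replicates 1 to 4. They were 10.7%, 30.7%, 7.13% and 31.9% in those of 7-day cold.

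The odds of a named cell being lymphatic were 4.24-fold higher after 7 days of cold than at thermoneutrality, with a log2 odds ratio of 2.08 ± 0.59 (SE) and a 95% interval of 0.83 to 3.34. The limma p was 0.00301, and the p adjusted over 27 named clusters was 0.0163. In this comparison 37.0% of the named clusters passed the same threshold, 9 upward and 1 downward, and the lymphatic estimate ranked 9 of 27, against a median of 0.68 over all of them. The calls were split 4 upward and 6 downward relative to the average named cluster and 8 and 4 with edgeR's TMM scaling. They were split 1 and 2 without the clusters whose names begin with VSM_ in the denominator. The libraries of the 2 housings did not overlap for 33.3% of the named clusters. On the share of named cells a rise was thus common among the clusters, and the lymphatic cells were not at the top of it. In replicates 1 and 2 alone the difference was 2.37, and in replicates 3 and 4 alone 1.8.

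The call did not survive every way of forming the share. With all cells of a library as the denominator the log2 odds ratio was 1.25 (limma adjusted p = 0.145). It was 1.30 (limma adjusted p = 0.0943) with the clusters whose names begin with VSM_, the vascular smooth muscle cells, taken out of the denominator. VSM-AP_6 stayed in that denominator. Relative to the average named cluster the log2 odds ratio was 1.31 (limma adjusted p = 0.0721). Among cells at or above the median of 7085 UMIs it was 1.4 (limma adjusted p = 0.146). Exact permutation over the 8 libraries, adjusted over 27 clusters, gave 0.0857. Its unadjusted p of 0.0286 was the smallest that 70 assignments allow, so a wider separation of the lymphatic shares could not have lowered either value.

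The means of the other housings lay between these 2. At room temperature lymphatic cells were 0.476%, 0.617%, 2.77% and 1.12% of named cells in replicates 1 to 4, a mean of 1.25% ± 1.06 (SD, n = 4). Replicates 1 and 2 lay within or below the thermoneutral range and replicates 3 and 4 above it. After 2 days of cold they were 1.11%, 1.30% and 3.96% in replicates 2 to 4, a mean of 2.12% ± 1.59 (SD, n = 3). All 3 of these libraries lay above all 4 thermoneutral ones, which was so for 22.2% of the named clusters, counting clusters separated in either direction.

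Neither of these housings passed the test against thermoneutrality. The log2 odds ratio was 1.2 ± 0.63 for 2-day cold (95% interval -0.16 to 2.55, limma adjusted p = 0.195), in a comparison where 11.1% of the named clusters passed. For room temperature it was 0.36 ± 0.59 (limma adjusted p = 0.748), and 0.0% of the clusters passed, with 1 at an unadjusted p below 0.05. Without room temperature replicate 3 this estimate turned to -0.12, and within replicates 1 and 2 it was -0.32 against 1.05 within replicates 3 and 4.

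Between 7-day cold and room temperature the lymphatic estimate was 1.72 ± 0.59 (95% interval 0.46 to 2.97, limma adjusted p = 0.0718), where 7.41% of the named clusters passed. It passed without room temperature replicate 3, at 2.21 (limma adjusted p = 0.0109), and without 7-day replicate 4, at 2.02 (adjusted p = 0.0347). It also passed with a covariate for replicates 1 and 2 against 3 and 4, at the same estimate of 1.72 (limma adjusted p = 0.0234). Within replicates 1 and 2 the difference was 2.69, and within replicates 3 and 4 it was 0.75. Lymphatic cells at 7 days and at 2 days of cold differed by 0.89 ± 0.63 (limma adjusted p = 0.549) and 2-day cold and room temperature by 0.83 ± 0.63 (adjusted p = 0.383). In both comparisons 0.0% of the clusters passed, with 2 and 3 at an unadjusted p below 0.05. Over all 4 housings together the limma F test gave an adjusted p of 0.0567 for the lymphatic share.

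**Figure D1:**
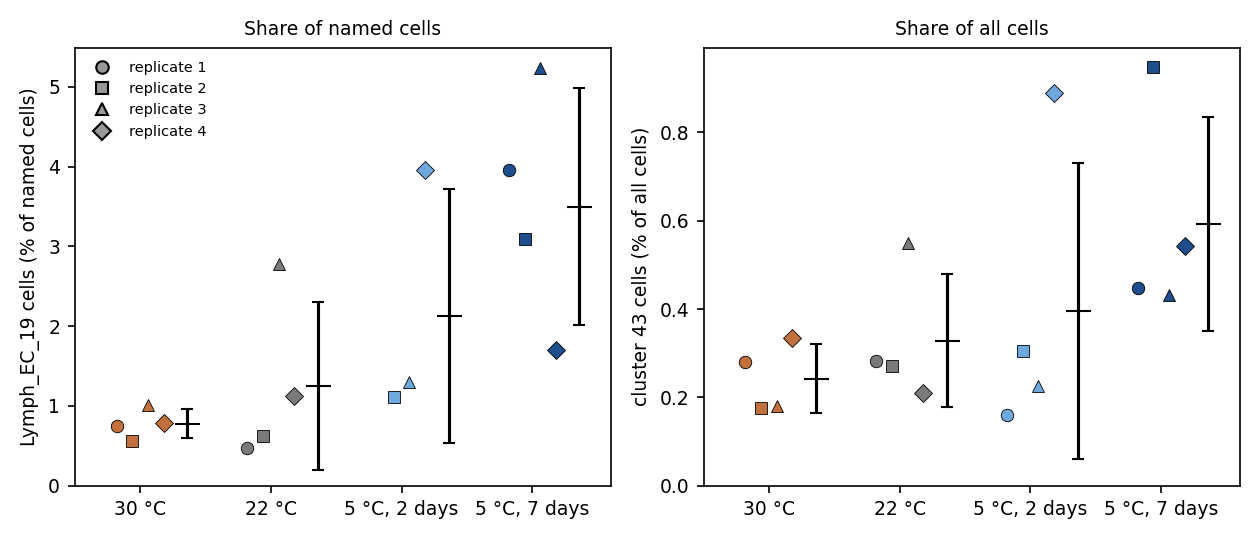
Lymphatic cells by housing in each library, as a percentage of named cells (left, 15 libraries) and, for cluster 43, as a percentage of all cells (right, 16 libraries). Points are libraries shaped by replicate number and bars are the mean ± SD; on the left the 7-day libraries, 1.70% to 5.24%, lie above the thermoneutral ones, 0.562% to 1.01%.

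**Figure D2:**
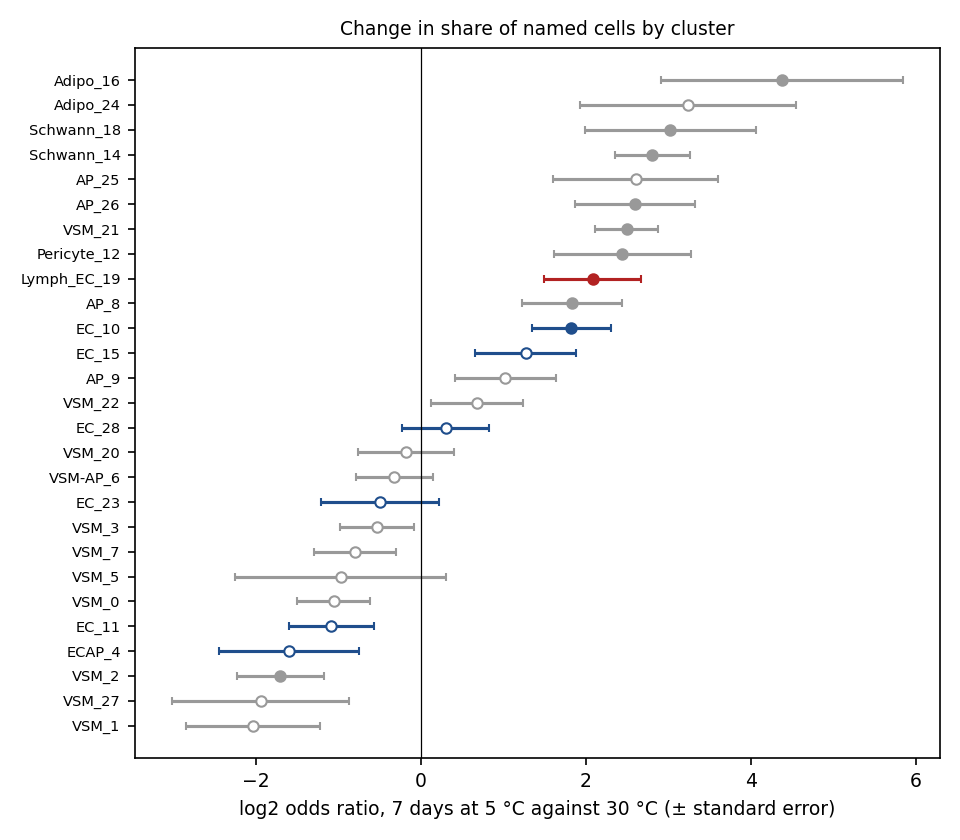
Log2 odds ratio ± SE of the share of each of 27 named clusters, 7-day cold against thermoneutral, from limma. Filled points have an adjusted p below 0.05, the lymphatic cells are in red at 2.08 and the clusters named EC and ECAP are in blue; 9 clusters lie above 0 and 1 below with a filled point.

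Counting all cells of the library brings in replicate 1 of 2-day cold and the unnamed cells of cluster 43. The cluster was 0.280%, 0.175%, 0.180% and 0.334% of all cells in thermoneutral replicates 1 to 4, and 0.449%, 0.947%, 0.432% and 0.543% in those of 7-day cold. The 7-day libraries again lay above all thermoneutral ones; for 12.7% of the 55 clusters of all cells that were tested, the 2 housings did not overlap in either direction. At room temperature the cluster was 0.281%, 0.272%, 0.550% and 0.210%, and after 2 days of cold 0.160%, 0.306%, 0.226% and 0.890%.

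In the means over 4 libraries each, cluster 43 was 0.242% ± 0.0779 (SD) at thermoneutrality, 0.328% ± 0.151 at room temperature, 0.395% ± 0.335 after 2 days of cold and 0.593% ± 0.241 after 7 days. The log2 odds ratio of 7-day cold against thermoneutrality was 1.23 ± 0.57 (95% interval 0.02 to 2.45), with a limma p of 0.0475 that became 0.232 after adjustment over 55 clusters. In that comparison 0.0% of the clusters passed, with 8 at an unadjusted p below 0.05.

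Set against the other endothelial cells of the same library, the lymphatic cells showed a smaller difference that did not pass the test. There were 5.93, 4.17, 14.7 and 11.5 lymphatic cells per 100 EC_ cells in thermoneutral replicates 1 to 4, a mean of 9.08 ± 4.89 (SD, n = 4). In 7-day cold there were 19.6, 23.4, 35.6 and 14.5 per 100, a mean of 23.3 ± 8.95 (SD, n = 4). The groups overlapped by a narrow margin, 7-day replicate 4 lying just under thermoneutral replicate 3. With 0.5 cells added to both counts, as in the test, they no longer overlapped (exact permutation p = 0.0286, not adjusted), which was so for 31.8% of the 22 clusters compared with EC_ cells; the order of these 2 libraries thus rested on the added 0.5 cells.

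At room temperature the ratio was 2.65, 4.53, 33.3 and 6.56 per 100 EC_ cells in replicates 1 to 4, and 3 of these 4 values lay inside or below the thermoneutral range. In replicates 2 to 4 of 2-day cold it was 7.93, 8.23 and 44.4 per 100. Replicate 3 at room temperature and replicate 4 of 2-day cold, the libraries with the most lymphatic cells, thus also had many of them per EC_ cell. EC_ cells themselves were 9.94% ± 3.61 (SD, n = 4) of named cells at thermoneutrality and 14.9% ± 3.68 (n = 4) after 7 days of cold.

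The log2 ratio of lymphatic to EC_ cells, with 0.5 cells added to each, was 1.41 ± 0.77 (SE) higher after 7 days of cold than at thermoneutrality (95% interval -0.22 to 3.04), a 2.66-fold ratio with a limma p adjusted over 22 clusters of 0.117. On this scale 13.6% of the clusters passed, and 13 of 22 had an unadjusted p below 0.05. The 3 calls, 2 upward and 1 downward, became 6, all upward, with EC_ and ECAP_4 cells as the reference, 9, all downward, with EC_10 as the reference, and 12, 6 in each direction, with a covariate for replicates 1 and 2 against 3 and 4. In replicates 1 and 2 alone the difference was 2.01, and in replicates 3 and 4 alone 0.81. With EC_10 alone as the reference it was 0.30 (limma adjusted p = 0.687), and with EC_ and ECAP_4 cells together 2.20 (adjusted p = 0.0535), so the choice of endothelial reference moved the size more than leaving out any library, which gave 1.14 to 1.69.

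The other housings did not pass on this scale either. Against thermoneutrality the log2 ratio differed by 0.77 ± 0.83 after 2 days of cold (limma adjusted p = 0.475), where 9.09% of the clusters passed, and without 2-day replicate 4 it was -0.04. For room temperature it was -0.17 ± 0.77 (adjusted p = 0.930), where 0.0% passed and 1 cluster had an unadjusted p below 0.05; without room temperature replicate 1, room temperature replicate 2 or thermoneutral replicate 3 it lay above 0, at 0.30, 0.06 and 0.11. Between 7-day cold and room temperature it was 1.58 ± 0.77 (95% interval -0.04 to 3.21, adjusted p = 0.154), where 9.09% passed, and 2.30 without room temperature replicate 3 (adjusted p = 0.0240). The 7-day and 2-day libraries differed by 0.64 ± 0.83 (adjusted p = 0.856), and 2-day cold and room temperature by 0.94 ± 0.83 (adjusted p = 0.499). In these last comparisons 0.0% of the clusters passed, with 1 and 2 at an unadjusted p below 0.05.

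**Figure D3:**
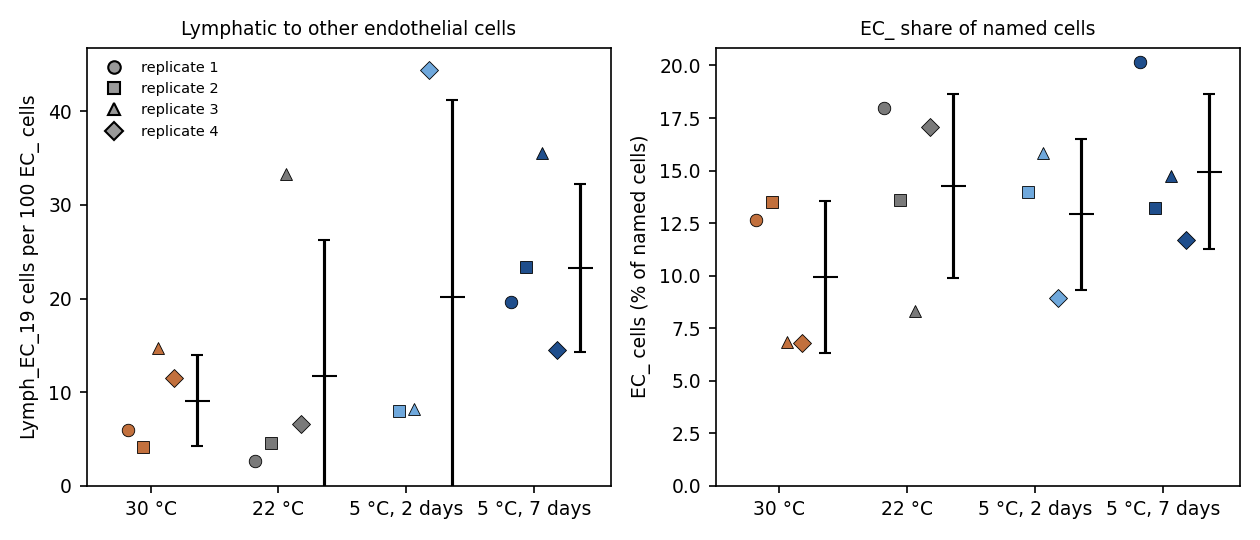
Lymphatic cells per 100 EC_ cells of the same library (left) and EC_ cells as a percentage of named cells (right) by housing, with points for libraries and bars for the mean ± SD, cut at 0. The left panel shows the overlap of 7-day replicate 4 (14.5) with thermoneutral replicate 3 (14.7), and the room temperature and 2-day means resting on 1 library each, at 33.3 and 44.4.

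The EC_ clusters did not move together, so the ratio depended on which of them the lymphatic cells were set against. In share of named cells between thermoneutrality and 7-day cold, EC_10 rose with a log2 odds ratio of 1.83 ± 0.48 (limma adjusted p = 0.0163). EC_11 had an estimate of -1.09 ± 0.52 and EC_15 one of 1.27 ± 0.61 (both adjusted p = 0.0943), EC_23 one of -0.50 ± 0.71 (adjusted p = 0.539) and EC_28 one of 0.30 ± 0.53 (adjusted p = 0.603). The lymphatic estimate of 2.08 was above all 5, and it was nearest to that of EC_10.

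Set against EC_10, the lymphatic log2 ratio differed by 0.30 between 7-day cold and thermoneutrality (exact permutation p = 0.4, adjusted over 5 EC_ clusters 0.4). It differed by 0.81 against EC_15 (exact p = 0.343, adjusted 0.4), by 2.53 against EC_23 (exact p = 0.0857, adjusted 0.143) and by 1.75 against EC_28 (exact p = 0.0286, adjusted 0.0714). Against EC_11 it differed by 3.10 (exact p = 0.0286, the smallest that 70 assignments allow, adjusted 0.0714). None of the 5 passed after adjustment, and with 4 libraries against 4 a single pair of clusters could at best reach 0.0286.

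The contrast with EC_11 was visible in the cell numbers. EC_11 cells numbered 181, 23, 37 and 65 in thermoneutral replicates 1 to 4 and 11, 16, 10 and 9 in those of 7-day cold, against 28, 3, 14 and 20 and then 31, 33, 32 and 8 lymphatic cells. Lymphatic cells were fewer than EC_11 cells in every thermoneutral library and outnumbered them in 3 of 4 libraries of 7-day cold. At room temperature EC_11 cells numbered 148, 139, 37 and 7, and in 2-day cold 82, 44 and 30, so that lymphatic cells outnumbered them in room temperature replicate 3 and in 2-day replicate 4 as well. EC_10 cells numbered 69, 10, 35 and 47 at thermoneutrality and 83, 47, 52 and 25 in 7-day cold, above the lymphatic cells in all 8 of these libraries.

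Across the 15 libraries, the log odds of 26 other named clusters were compared with those of the lymphatic cells. EC_11 was the least like them, with Spearman's rho of -0.921 and Pearson's r of -0.883 (permutation p adjusted over 26 relations 0.000520 and 0.00104). The relation held when 7-day replicates 1 and 3, farthest from the median, were left out (r = -0.888), after housing means were removed (r = -0.819), and within replicates 1 and 2 (r = -0.960, n = 7) and 3 and 4 (r = -0.845, n = 8). VSM_2 and VSM_3 came next, with rho of -0.729 (adjusted permutation p = 0.0184, r = -0.648) and -0.661 (adjusted permutation p = 0.0316, r = -0.655). After housing means were removed the r was -0.298 for VSM_2 and -0.568 for VSM_3. Within replicates 1 and 2 and within 3 and 4, the r was -0.934 and -0.453 for VSM_2, and -0.801 and -0.311 for VSM_3.

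The clusters most like the lymphatic cells across libraries were VSM_21, EC_10 and AP_26. VSM_21 had a rho of 0.818 and an r of 0.823 (permutation p adjusted over 26 relations 0.00429 and 0.00273), and an r of 0.743 without the 2 farthest libraries. EC_10 had a rho of 0.771 and an r of 0.672 (adjusted 0.00988 and 0.0295), and AP_26 a rho of 0.696 and an r of 0.712 (adjusted 0.0259 and 0.0238). Within housings the r fell to 0.501 for VSM_21, 0.283 for EC_10 and 0.337 for AP_26. In replicates 1 and 2 and in replicates 3 and 4, the r was 0.958 and 0.746 for VSM_21, 0.840 and 0.418 for EC_10 and 0.905 and 0.476 for AP_26.

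Shares of one total move against each other by construction, and the lymphatic share also moved with depth. Over the 15 libraries its log odds fell with the median UMI count of named cells, with rho of -0.729 and r of -0.719 (permutation p adjusted over 8 relations 0.0155 and 0.0128). Without the 2 libraries farthest in depth r was -0.638. EC_11 had a rho of 0.711 and an r of 0.741. With the median of all cells the lymphatic rho was -0.671 and r -0.578 (adjusted permutation p 0.0201 and 0.0483), and r was -0.430 without the 2 farthest libraries. The median of named cells also depends on which clusters a library holds, as cluster medians were 4822 UMIs in lymphatic and 12804 in EC_11 cells. Library medians of named cells were 7138 ± 1683 UMIs (SD, n = 4) at thermoneutrality and 5362 ± 705 (n = 4) after 7 days of cold. The depth put in the model was another measure, the library median over all cells. It was 4036 ± 833 UMIs (SD, n = 4) at thermoneutrality and 3650 ± 1083 (n = 4) after 7 days of cold. With it, the 7-day lymphatic estimate against thermoneutrality was 1.89 (limma adjusted p = 0.0110) and that against room temperature passed, at 1.60 (adjusted p = 0.0285). No model held the median over named cells. The part of depth in the relation between the lymphatic cells and EC_11 was not tested.

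**Figure D4:**
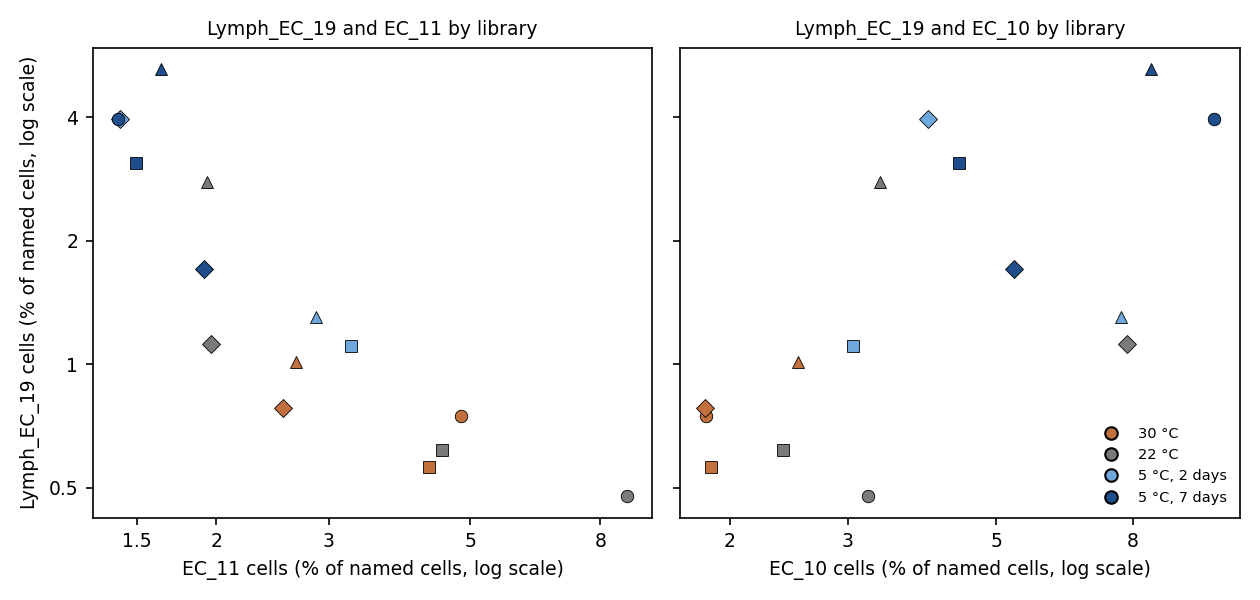
Share of named cells in the lymphatic cluster against that in EC_11 (left) and EC_10 (right), 1 point per library, both axes logarithmic and in percent, coloured by housing. Libraries with a higher lymphatic share tend to have a lower EC_11 share (rho -0.921 over 15 libraries, in log odds) and a higher EC_10 share (rho 0.771).

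Single lymphatic cells differed widely in how much RNA was counted from them. Their UMI counts ran from 832 to 139024, with a median of 4822 and quartiles of 2308 and 13004. The upper quartile was 5.63 times the lower, the widest spread of the 28 named clusters, against 4.70 over all EC_ cells, 3.90 in EC_10 and 2.33 in EC_11. Of the lymphatic cells 68 (17.7%) had more than 20000 UMIs, against 262 EC_ cells (8.78%), of which 182 were in EC_11. Doublets, droplets that caught more than 1 cell, were not called here, and their part in the high counts was not tested.

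The median UMI count per lymphatic cell was 5954, 10138, 5125 and 4919.5 in thermoneutral replicates 1 to 4, and 9691, 8572, 4998 and 2127 at room temperature. It was 7139, 4335 and 3996 in replicates 2 to 4 of 2-day cold, and 3941, 6085, 2304 and 1720 in those of 7-day cold. In 11 libraries with at least 10 lymphatic cells, the median differed from that of the EC_ cells of the same library by -0.02 ± 0.48 on the log2 scale (SD, exact sign-flip permutation p = 0.871), higher in 5 and lower in 6. Genes detected per cell differed by 0.02 ± 0.35 (log2, exact p = 0.819). By the mean over cells instead of the median, lymphatic cells had 0.63 more log2 UMIs (exact permutation p adjusted over 4 measures 0.00781) and 0.23 more log2 genes (adjusted 0.0130) than EC_ cells.

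Among EC_ cells within 10% of the same UMI count, the number of genes detected in lymphatic cells differed by 0.02 ± 0.03 on the log2 scale (exact p = 0.119), higher in 8 of 11 libraries. Lymphatic cells with fewer than 3 such EC_ cells in their library were left out. In replicate 2 of 2-day cold, for example, lymphatic cells reached 112213 UMIs and EC_ cells 31716, so the deepest were unmatched. Among the cells that could be matched, the 2 kinds of endothelium lay close in gene number, with library differences from -0.05 to 0.07.

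Lymphatic cells had a lower mitochondrial share of their UMIs than the EC_ cells of the same library. Over 11 libraries the mean of the library medians was 2.26% against 3.49%, a difference of -1.23 ± 0.70 percentage points (SD), lower in 11 of 11 libraries. The exact sign-flip permutation p was 0.000977, the smallest that 2048 assignments allow, and 0.00391 after adjustment over 4 measures. The difference ranged from -2.66 to -0.0226 points, nearest to 0 in replicate 2 of 2-day cold, where the medians were 1.85% and 1.88%. The medians were also lower than those of EC_ cells in the 4 libraries with fewer lymphatic cells. Only 1 lymphatic cell was at or above 20% mitochondrial UMIs, against 42 EC_ cells.

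The EC_ clusters were themselves unlike in this measure. Over all cells the median mitochondrial share was 2.22% in lymphatic cells, 1.90% in EC_15, 2.47% in EC_28, 3.36% in EC_10, 3.57% in EC_11 and 9.37% in EC_23. The lymphatic value lay between EC_15 and EC_28. The part of the mix of EC_ clusters in the difference from EC_ cells as a whole was not tested. Against all other named cells the lymphatic median was lower by 4.13 points (-4.13, exact permutation p adjusted 0.00391).

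**Figure D5:**
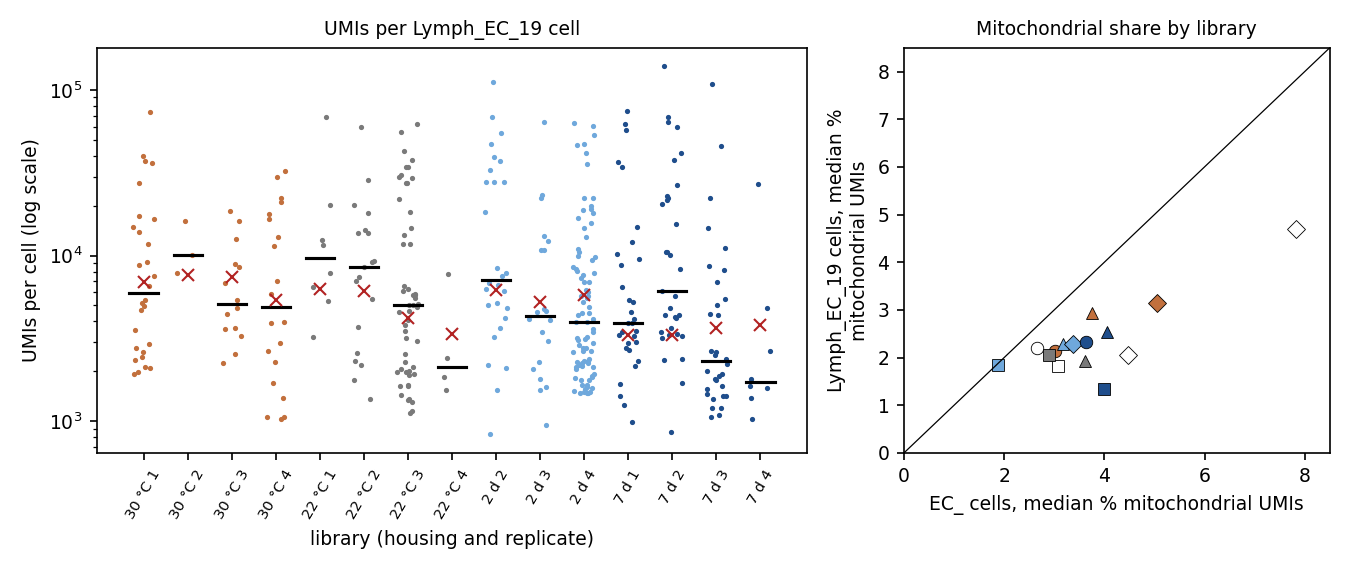
Left, UMI counts of each lymphatic cell by library on a log axis, with a black line for the median and a red cross for the EC_ median. Right, median mitochondrial percentage of lymphatic cells against that of EC_ cells in each library with the line of equality, open symbols for libraries with fewer than 10 lymphatic cells; all 15 points lie on the side where the lymphatic median is lower.

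Cell cycle phases had been called per cell by the authors from S and G2M gene scores. Of the lymphatic cells 149 were called S, 136 G2M and 100 G1, so that 74.0% carried an S or G2M call, against 70.6% of EC_ cells. Over 11 libraries the share was 73.3% against 70.4%, a difference of 2.92 ± 8.06 points (SD, exact permutation p = 0.273). The same lymphatic cells carried an S or G2M call in 26.5% of cases in the authors' table of all cells, and EC_ cells in 23.9%. The calls thus differed between the authors' tables of named cells and of all cells. The reason was not tested, and no rate of division is read from the calls.

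High scores were rare in the lymphatic cells. With a limit of 0.3 on either score, set after the values had been seen, 9 lymphatic cells (2.34%) were above it, against 91 EC_ cells (3.05%), of which 56 were in EC_10 and 29 in EC_28. The share was 6.46% in EC_10 and 14.9% in EC_28, but 0.477% in EC_11, 0.287% in EC_15 and 0% in EC_23 and EC_32, so the lymphatic share lay between these. By library, 3 of the 9 came from replicate 4 of 2-day cold, 3 from replicate 1 of 7-day cold, and 1 each from 7-day replicate 3, 2-day replicate 2 and room temperature replicate 2. None of the 65 thermoneutral lymphatic cells was above the limit, which allows a share of up to 4.62%.

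Within the lymphatic cells, no comparison of these 4 measures between housings passed. Between 7-day cold and thermoneutrality, with 3 libraries of at least 10 lymphatic cells each, median UMIs differed by -0.48 and genes by -0.18 on the log2 scale (exact permutation p = 0.4 and 0.7). The median mitochondrial share was 2.07% against 2.74%, a difference of -0.67 points (exact p = 0.3), and the share called S or G2M was 65.5% against 74.0%, a difference of -8.58 points (exact p = 0.5). With 3 libraries against 3 the smallest possible p is 0.1, so this design could not have passed a threshold of 0.05.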

How the data were processed

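Capture used the Chromium Single Cell 3′ v3 chemistry, per the labels' protocols. STAR, Cell Ranger 3.0.1 and mm10 are named, per the submitters' processing notes; how cells were filtered and clustered is not given in the sources used here. Per-cell annotations were analysed. The counts of UMIs and genes in each cell are the authors' own, deposited without normalization. The mitochondrial fraction was deposited per cell and is given here in percent. The authors' S and G2M scores, phase calls, cluster numbers and cluster names were used as deposited. The deposited ratio of log10 genes to log10 UMIs was left out.

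The library was the replicate. Of 28 named clusters, 27 averaged 10 or more cells a library and were tested, in log2 odds after adding 0.5 cells to both counts, with limma 3.58.1 (R 4.3.3), 4 housings in 1 fit and 6 contrasts. P-values were two-sided, with Benjamini-Hochberg adjustment over the clusters of each contrast and a threshold of 0.05. The ratio to EC_ cells was fitted likewise over 22 clusters outside EC_. Measures per cell were summarised by library medians, where a library had at least 10 lymphatic cells, and compared by exact permutation; correlations used permutation tests. The clusters to be named were the EC_ clusters, ECAP_4 and the 3 most and 3 least like the lymphatic cells by rho. The members, this rule and the lists were chosen with earlier results of these data known.

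On cell numbers simulated for 7-day cold against thermoneutral over 27 clusters, limma called 7.5%, 45% and 85% of clusters changed by 1, 2 and 4 on the log2 scale. Over 22 clusters relative to EC_ cells it called 12.5%, 22.5% and 80%. Each cluster was simulated independently, so the simulated shares did not compete for one total as real shares do. Counting noise was added to a spread that already held it. These rates hold for that setting only. Intervals on single libraries are 95% Wilson intervals. They, and the limit that 3 cells would set for a share of 0, cover counting error only. Every pair of libraries within a housing differed by more than sampling noise in its named clusters (chi-square per degree of freedom of at least 3.84). Alternatives included edgeR 4.0.16 (totals or TMM), other denominators and references, filters on cells and libraries, and leaving out each library.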

Additional observations from a re-analysis of the deposited data

Results flagged for a closer look

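Room temperature replicate 3 stood far from the other room temperature libraries in lymphatic cells per 100 EC_ cells, with 33.3 against 2.65 to 6.56 in the other 3. The gap to the nearest of them was 0.873 of the whole range, above the limit of 0.829 for 4 libraries.

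ECAP_4 cells, used here only as part of an endothelial reference, were 16.6% of named cells in 7-day replicate 4, against 2.62% to 3.95% in the other 7-day libraries. The gap was 0.905 of the range. The same library had the lowest lymphatic share of its housing, 1.70%. Of 16 groups of libraries checked, these 2 met the limit; chance alone gives about 1 in 20.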

How the results depend on the processing

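Of 758 recomputed values for 31 results, 674 kept their direction and, where a test was run, their side of the threshold, or for counts stayed within 1.5 times. The 7-day rise in lymphatic share over thermoneutral kept its sign in all 34 alternatives. In 27 it kept its call or, within each replicate pair alone, stayed near in size with no test run. The call was kept in all 15 that left out a library (1.85 to 2.38). The rise lost the call relative to the average cluster (1.31) and in cells with the median UMI count or more (1.4). It also lost it with all cells (1.25) or cells outside the VSM_ clusters (1.30) as denominator, and by exact permutation (2.08). The call was lost too for cluster 43 of all cells (1.23, also with a replicate-pair covariate, both added after seeing the data). The cause was not tested. The shares rest on 3 to 84 lymphatic cells per library, which limits single libraries.

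Against room temperature the 7-day rise passed with a replicate block (1.72), a covariate for replicates 1 and 2 against 3 and 4 (1.72), library depth over all cells as a covariate (1.60, added after seeing the data) and cells under 20% mitochondrial UMIs (1.7). It was 2.69 and 0.75 within replicate pairs, ran from 1.37 to 2.21 without 1 library, and did not pass in 26 of 34 alternatives. Same-numbered libraries had correlations of -0.302 to 0.655 (median 0.22; 12 of 21 pairs over 0.1), so the block rests on a number alone. It called 15 clusters for 7-day cold against thermoneutral, 8 for 7-day cold against room temperature and 1 for 2-day cold against thermoneutral.

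Some estimates changed sign. Room temperature against thermoneutral gave -0.32 in replicates 1 and 2, -0.013 relative to the average cluster and -0.12 to 0.71 without 1 library; relative to EC_ cells it gave 0.23 in replicates 3 and 4, 0.29 in libraries of at least 3000 cells, 0.37 with edgeR, 0.62 with ECAP_4 in the reference and -0.89 to 0.30 without 1 library. Two-day cold against room temperature gave -0.0013 for cluster 43 with or without the covariate. Relative to EC_ cells, 2-day cold against thermoneutral gave -0.10 with depth as a covariate and -0.043 to 1.19 without 1 library, and 7-day cold against room temperature 1.11 to 2.30.

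Exact permutation allows no unadjusted p below 0.0286 with 4 libraries against 4 or 3 against 4, which limits its counts of calls. The lymphatic share in 7-day cold against thermoneutral already stood at this smallest value. The count of named clusters called for 7-day cold against thermoneutral was 10. It was 0 by exact permutation, with all cells as denominator or in cells with the median UMI count or more. It was 3 without the VSM_ clusters, 17 with the replicate-pair covariate and 4 to 14 without 1 library (5 without thermoneutral replicate 3, 4 without replicate 4). For 2-day cold against thermoneutral it was 3, and 0 by exact permutation, with depth as a covariate or under 20% mitochondrial UMIs, 1 relative to the average cluster or on the arcsine scale, 5 with no minimum of cells and 0 to 7 without 1 library (0 without 2-day replicates 2 or 4 or thermoneutral replicate 4, 1 without thermoneutral replicate 3, 7 without thermoneutral replicate 1). For 7-day cold against room temperature it was 2, and 0 by exact permutation, with all cells or in cells with the median UMI count or more. It was 1 without the VSM_ clusters, 4 with TMM, 6 under 20% mitochondrial UMIs, 7 with depth and 8 with the pair covariate. Without 1 library it was 2 to 6 (6 without 7-day replicate 4, 4 without room temperature replicates 3 or 4). For room temperature against thermoneutral it was 0, and 1 with no minimum. For 7-day against 2-day cold it was 0, and 1 on the arcsine scale. For 2-day cold against room temperature it was 0, 1 with depth or libraries of at least 3000 cells, and 0 to 2 without 1 library (1 without room temperature replicate 2, 2 without replicate 4). Relative to EC_ cells the 3 calls of 7-day cold against thermoneutral became 8 with the block, 0 without 7-day replicate 2 or thermoneutral replicates 3 or 4, 1 without 7-day replicate 1, 6 without thermoneutral replicate 2, 7 without 7-day replicate 4 and 10 without thermoneutral replicate 1.

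Against EC_ cells, log2 UMIs were -0.11 to 0.039 and log2 genes -0.041 to 0.073 without 1 library; genes were -0.00017 with libraries of at least 5 cells. The mean over cells gave 0.63 against a median-based -0.02 for UMIs, a reversal that passed (adjusted exact p = 0.00781), and 0.23 for genes, and all other named cells as reference -0.39 and -0.18, and 17.3 points for S or G2M calls. For 7-day cold against thermoneutral within the lymphatic cells, the mean over cells gave 0.39 (UMIs, against -0.48) and 0.025 (genes), genes gave 0.019 in replicates 1 and 2 and -0.45 to 0.11 without 1 library, and S or G2M calls 2.77 points in replicates 3 and 4 (against -8.58).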
